A study of Mus musculus with 6 samples.

Results

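Ribosome assembly factors are the proteins that cut, fold and modify ribosomal RNA (rRNA) and load ribosomal proteins onto it without staying in the finished ribosome. Their mRNAs were followed in livers of mice given inosine and of control mice. The set was chosen by gene annotation: a gene entered if the deposited table annotated it with the Gene Ontology process names ribosome biogenesis or rRNA processing. Ribosomal proteins, translation initiation factors (symbols starting Eif), RNA polymerase I genes and small nucleolar RNP core proteins were then dropped by symbol. Tfb1m and Tfb2m were dropped as well. Of 16375 genes in the table, 189 carried either annotation, 33 of them were dropped, and 156 remained as members. Of these 156 genes, 82 were annotated to ribosome biogenesis and 115 to rRNA processing, with 41 annotated to both. No measured value entered that rule, but the set was proposed with the comparison of inosine and control livers already known. The fold changes of the members are therefore given as a description.

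Bulk RNA sequencing of liver was done in 3 libraries from mice that received inosine by intraperitoneal injection and in 3 libraries from control mice. Inosine is the purine nucleoside formed when adenosine loses its amino group. The sources used here do not give the dose, the timing, the strain, the sex or the age of the mice, or what the controls received. Whether the 6 libraries stand for 6 animals is not stated, and part of their spread may be technical.

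Ribosome assembly starts in the nucleolus on the long precursor transcribed by RNA polymerase I. The small subunit processome, a large particle built around the U3 small nucleolar RNA, binds the end of the precursor that is made first. A separate series of factors folds and trims the part that becomes the large subunit. The RNA exosome then removes spacer sequence, both subunits are exported to the cytoplasm, and the last factors are released there. In liver this pathway is known to be switched on during growth and regeneration.

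The libraries held 16862048 to 17505035 counts in the inosine group and 16383896 to 17009895 in the control group. Albumin, the defining hepatocyte mRNA, stood at 80307 to 88942 CPM (counts scaled to a common library size by the TMM method) in inosine livers and at 65696 to 89637 CPM in control livers. Of 12326 genes with enough counts to be tested, 1 passed an adjusted p of 0.05 in edgeR's quasi-likelihood test. It was Crebrf, a regulator of the CREB3 transcription factor, at 14.6 ± 1.2 CPM in inosine livers and 36.5 ± 2.9 CPM in control livers (SD, n = 3). That is 0.00811% of the genes tested, and 0 of the 155 members tested were among them. The smallest adjusted p of any member in edgeR was 0.0834.

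Control replicate 1 stood apart from the other controls. Its chi-square per gene, a measure of how far the counts of a pair of libraries differ beyond sampling noise, was 122 against control replicate 2 and 84.85 against control replicate 3, while controls 2 and 3 gave 28.9 and pairs of inosine libraries 42.4 to 91.15. Genes of the daily clock showed this most plainly, chosen after their values were seen. Dbp, a clock output gene, had 65.8, 55.0 and 40.8 CPM in inosine livers and 19.4, 158 and 141 CPM in control livers. Nr1d1, a clock repressor, had 14.0, 9.51 and 11.9 CPM in inosine livers and 5.63, 64.4 and 33.3 CPM in control livers. Arntl, the clock activator that it represses, had 1.80, 1.604 and 3.12 CPM in inosine livers and 11.0, 1.56 and 0.875 CPM in control livers. In all 3 genes control replicate 1 lay outside the range of the other 5 libraries. Of the 12 clock genes tested, 2 (Per1 and Per2) were higher and 0 lower at an unadjusted p under 0.05 in edgeR, and without control replicate 1 there were 3 higher and 5 lower. Among the members, 42 were higher at an unadjusted p under 0.05 without that library, against 48 with it. Over all genes tested the count moved the other way, to 1217 without it from 889 with it. The median log2 fold change of the members was 0.15 without that library and 0.14 with it. Its part in the other results was not tested beyond the values given without it.

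Of the 155 tested members, 122, or 78.7%, had a positive log2 fold change (inosine over control), against 48.2% of all genes tested, although 48 had an unadjusted p under 0.05 in that direction and 0 passed the adjusted threshold in edgeR. The median log2 fold change was 0.14 over the members and -0.01 over all genes, so the typical difference was small. The middle of the members' distribution ran from 0.03 at the lower quartile to 0.30 at the upper quartile, and the whole range from -0.93 to 0.97. No member differed by as much as 2-fold, while 7 were more than 1.5-fold higher and 2, Pih1d2 among them, more than 1.5-fold lower in inosine livers.

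At an unadjusted p under 0.05 in edgeR, 48 members (31%) were higher, where 7.21% of all genes were. On the other side 1 member (0.645%) was lower at the same threshold, where 7.26% of all genes were. All 3 inosine libraries lay above all 3 controls for 55 members (35.5%, against 11.1% of all genes) and below them for 5 members (3.23%, against 9.8% of all genes). Those 5 included Xpo1 and Mterf4 and, chosen after their values were seen, Utp11 and Riox2. For the other 95 tested members the groups overlapped. DESeq2, which shares information on the spread differently, called 11 of 154 members higher (7.14%, against 0.948% of all genes) and 0 lower (against 0.974% of all genes). These were Ppan, Tsr1, Mphosph10, Rrp12, Sdad1, Ftsj3, Nop2, Rrs1, Rexo4, Wdr43 and Heatr1. When each of the 6 libraries was left out in turn, DESeq2 called 3 of these in every case, namely Ppan, Tsr1 and Mphosph10, and it called those 3 alone without inosine replicate 2 or inosine replicate 3. The authors' deposited table, made from the same libraries, held 11 of 156 members (7.05%) higher at a q-value under 0.05, where 0.575% of all its genes were. It held 0 members lower, where 0.594% of all its genes were, and all 11 were shared with the DESeq2 calls made here. Since these shares describe a set proposed with the contrast known, they are not a test of the set.

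**Figure D1:**
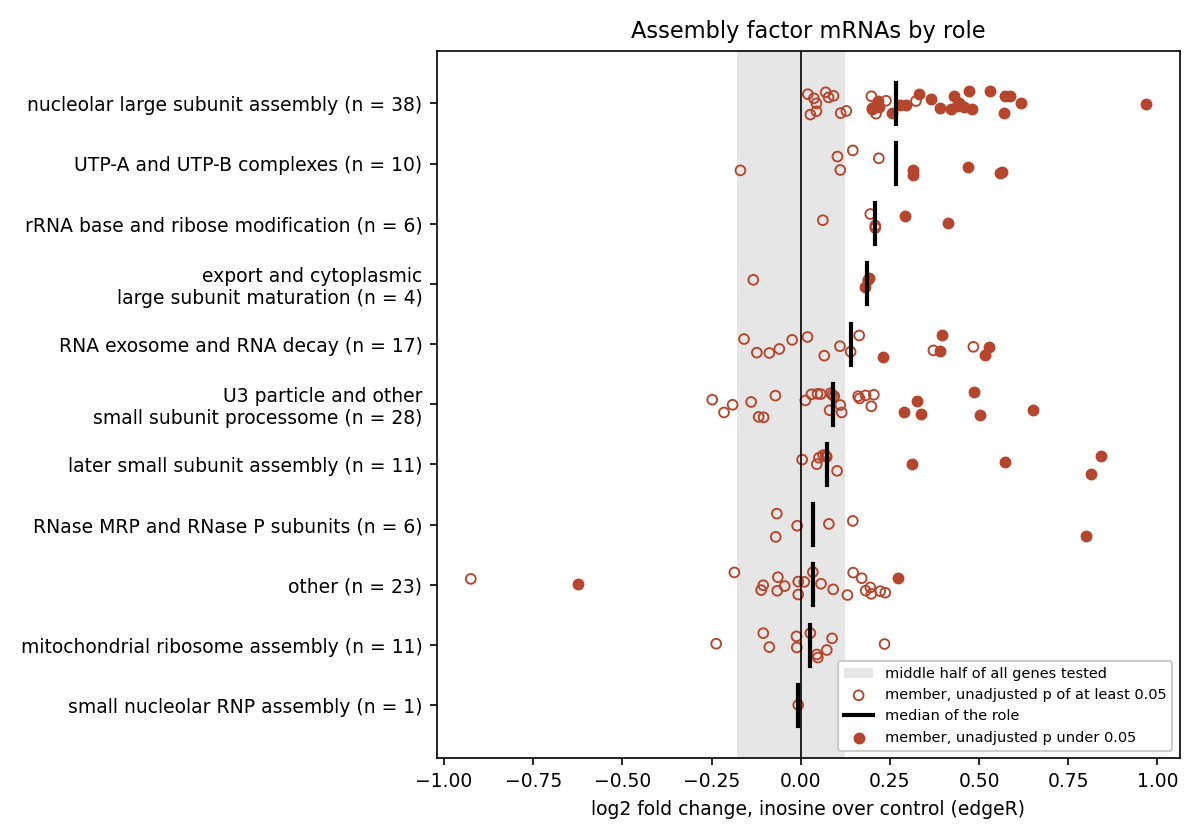
Log2 fold change of inosine over control (horizontal axis) for the 155 tested members, grouped by role, with 1 point per gene. Filled points had an unadjusted edgeR p under 0.05, black bars are role medians, and the grey band is the range between the quartiles of all 12326 genes. All 38 nucleolar large subunit factors lie right of 0, and members listed under mitochondrial ribosome assembly lie around 0.

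The members that build the large subunit in the nucleolus and those of UTP-A and UTP-B, described further on, had the highest medians of any role with all 6 libraries, by edgeR with TMM scaling. Their medians were nearly equal, UTP-A and UTP-B stood higher without control replicate 3 (0.30 against 0.24), and the rRNA modification members stood above both without control replicate 2, at 0.32. All 38 large subunit members had a log2 fold change above 0, with a median of 0.27, and 22 had an unadjusted p under 0.05. Their 3 inosine libraries lay above all 3 controls in 24 cases. Over all genes, 7.21% were higher and 7.26% lower at that unadjusted p, and 11.1% lay wholly above and 9.8% wholly below the controls. With all 6 libraries, these shares stand beside the counts of each role and list below. Leaving out control replicate 1, 2 or 3 gave 1217, 606 and 598 genes higher at that p, against 889. Leaving out inosine replicate 1, 2 or 3 gave 775, 659 and 637. Lower genes were 1183, 604, 695, 745, 811 and 711 in the same order, against 895. These counts stand beside those of each role and list when a library is left out. With upper-quartile scaling, which lowers the median of all genes to -0.04, 36 of the 38 were above 0, and without inosine replicate 3 there were 34 above 0 and 11 at an unadjusted p under 0.05, and without control replicate 3 there were 13.

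Ppan, a relative of a yeast factor that helps fold the large subunit precursor, had the largest fold change of all members. Its level was 15.0, 17.6 and 19.1 CPM in the inosine libraries, against 7.57, 10.3 and 8.52 CPM in the control libraries. The groups did not overlap, and the lowest inosine library stood well above the highest control. Its log2 fold change was 0.97 (SE 0.15), with an adjusted p of 0.0834 in edgeR and 6.07e-05 in DESeq2. Ppan (gene ID 235036) spans chr9:20799471-20803475 on the plus strand of GRCm39.

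Sdad1, whose yeast relative Sda1 accompanies the large subunit to its export, read 17.5, 19.8 and 19.6 CPM in inosine livers, against 13.3, 12.4 and 12.7 CPM in control livers. The spread within each group was small beside the gap between them, and the log2 fold change was 0.57 (SE 0.10, adjusted p = 0.0834 in edgeR). Ftsj3, an rRNA methyltransferase homologous to yeast Spb1, read 50.7, 51.8 and 55.2 CPM in inosine livers, against 40.2, 34.8 and 39.9 CPM in control livers. Again no control reached the lowest inosine library, with a log2 fold change of 0.46 (SE 0.08, with an adjusted p of 0.0956 in edgeR).

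Further members of this role, chosen after their values were seen, showed the same order of groups. Nop2, which methylates a cytosine of the large subunit rRNA, had 27.8, 29.7 and 35.2 CPM in inosine livers and 18.1, 21.4 and 22.1 CPM in control livers. Rrs1, which with Rpf2 brings the small rRNA particle of the large subunit into the precursor in yeast, had 23.0, 31.9 and 29.5 CPM in inosine livers and 18.0, 19.7 and 17.3 CPM in control livers. Rpf2 itself had 10.1, 11.0 and 10.2 CPM in inosine livers, against 7.44, 7.62 and 7.99 CPM in control livers. In all 3 genes the groups were apart, and the log2 fold changes were 0.59 for Nop2, 0.62 for Rrs1 and 0.44 for Rpf2, with edgeR adjusted p of 0.121, 0.126 and 0.157 in that order. Mdn1, the very large ATPase that strips factors from the precursor, was led by a single library, with 21.0, 18.5 and 28.1 CPM in inosine livers against 18.2, 17.2 and 16.1 CPM in control livers.

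The 3 subunits of the PeBoW complex, which is needed for processing of the large subunit rRNA in mammalian cells, differed in their values. Wdr12 had 19.0, 18.7 and 20.02 CPM in inosine livers and 16.0, 14.9 and 12.1 CPM in control livers, with groups apart and a log2 fold change of 0.42 (SE 0.12, with an adjusted p of 0.209 in edgeR). Bop1 had 22.5, 19.7 and 25.8 CPM in inosine livers and 23.6, 16.1 and 18.7 CPM in control livers, which overlap, and a log2 fold change of 0.22 (SE 0.16) that became 0.38 without control replicate 1, 0.10 without control replicate 2 and 0.11 without inosine replicate 3. Pes1 had 29.7, 28.4 and 33.2 CPM in inosine livers and 31.2, 29.1 and 29.2 CPM in control livers, also overlapping, and its log2 fold change of 0.03 (SE 0.09) turned to -0.04 without inosine replicate 3 and to -0.004 with upper-quartile scaling. Whether Wdr12 differed from its partners was not tested.

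Mybbp1a, a nucleolar protein that binds Myb and takes part in pre-rRNA processing, had 54.5, 55.8 and 63.4 CPM in inosine livers and 50.5, 49.2 and 49.6 CPM in control livers. The groups were apart by a small margin, with a log2 fold change of 0.22 (SE 0.08, with an adjusted p of 0.296 in edgeR).

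In the small subunit processome, UTP-A and UTP-B, the complexes that first bind the precursor, had 9 of 10 members above 0, a median log2 fold change of 0.27 and 5 members at an unadjusted p under 0.05, namely Wdr75, Heatr1, Wdr43 and, chosen after their values were seen, Utp4 and Utp18. Those 5 became 3 without control replicate 2, inosine replicate 2 or inosine replicate 3. In 6 of the 10 the inosine libraries all lay above the controls, where they did in 11.1% of all genes. The exception below 0 was Tbl3 of UTP-B, chosen after its values were seen, with a log2 fold change of -0.17 (SE 0.11). The remaining processome factors, including those of the U3 particle, had 21 of 28 members above 0, a median of 0.09 and 6 members at an unadjusted p under 0.05, which became 3 without control replicate 3 or inosine replicate 3.

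Within UTP-A, Wdr75 had narrow groups, at 15.7, 16.7 and 16.5 CPM in inosine livers against 11.6, 11.5 and 12.3 CPM in control livers (log2 fold change 0.47, SE 0.09, adjusted p = 0.110 in edgeR). Heatr1, a long scaffold protein also needed for RNA polymerase I transcription, had 22.6, 25.5 and 31.1 CPM in inosine livers and 17.1, 18.6 and 17.9 CPM in control livers. Wdr43 had 29.8, 35.7 and 41.8 CPM in inosine livers and 23.1, 24.9 and 24.9 CPM in control livers. In Heatr1 and Wdr43 the inosine libraries were widely spread while the controls lay close together, and the log2 fold change was 0.56 for each, with an SE of 0.12.

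Mphosph10, a protein of the U3 particle, had 19.6, 20.7 and 22.3 CPM in inosine livers and 14.4, 13.1 and 12.4 CPM in control livers. The groups were well apart, with a log2 fold change of 0.65 (SE 0.10), and an adjusted p of 0.0834 in edgeR and 0.0022 in DESeq2. Mphosph10 (gene ID 67973) spans chr7:64026289-64041984 on the minus strand of GRCm39. Nop14, a processome factor that in yeast works with the Emg1 relative, had 21.6, 21.7 and 24.3 CPM in inosine livers and 17.3, 14.2 and 16.7 CPM in control livers, and Ddx21, a nucleolar RNA helicase, had 41.6, 51.2 and 57.9 CPM in inosine livers and 39.1, 33.2 and 34.1 CPM in control livers. Both genes had separate groups, by a narrow margin for Ddx21, with log2 fold changes of 0.49 (SE 0.11) and 0.50 (SE 0.13) and edgeR adjusted p of 0.136 and 0.176.

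Other processome genes had overlapping groups. Utp20 had 17.0, 16.4 and 20.8 CPM in inosine livers and 19.2, 16.4 and 15.6 CPM in control livers, and its log2 fold change of 0.08 (SE 0.13) turned to -0.03 without inosine replicate 3. Emg1, a methyltransferase for the small subunit rRNA, had 39.3, 35.9 and 40.3 CPM in inosine livers and 33.0, 35.8 and 38.0 CPM in control livers. Rcl1, whose yeast relative takes part in an early cut of the precursor, had 85.6, 83.9 and 76.2 CPM in inosine livers and 82.9, 109 and 88.3 CPM in control livers. The helicase gene Ddx10 stood at 10.7 ± 1.9 CPM in inosine livers and 12.4 ± 2.4 CPM in control livers (SD, n = 3). Utp14b, a copy of the X-linked Utp14a with which it may share reads, was low at 1.42 ± 0.08 CPM in inosine livers and 1.69 ± 0.43 CPM in control livers.

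**Figure D2:**
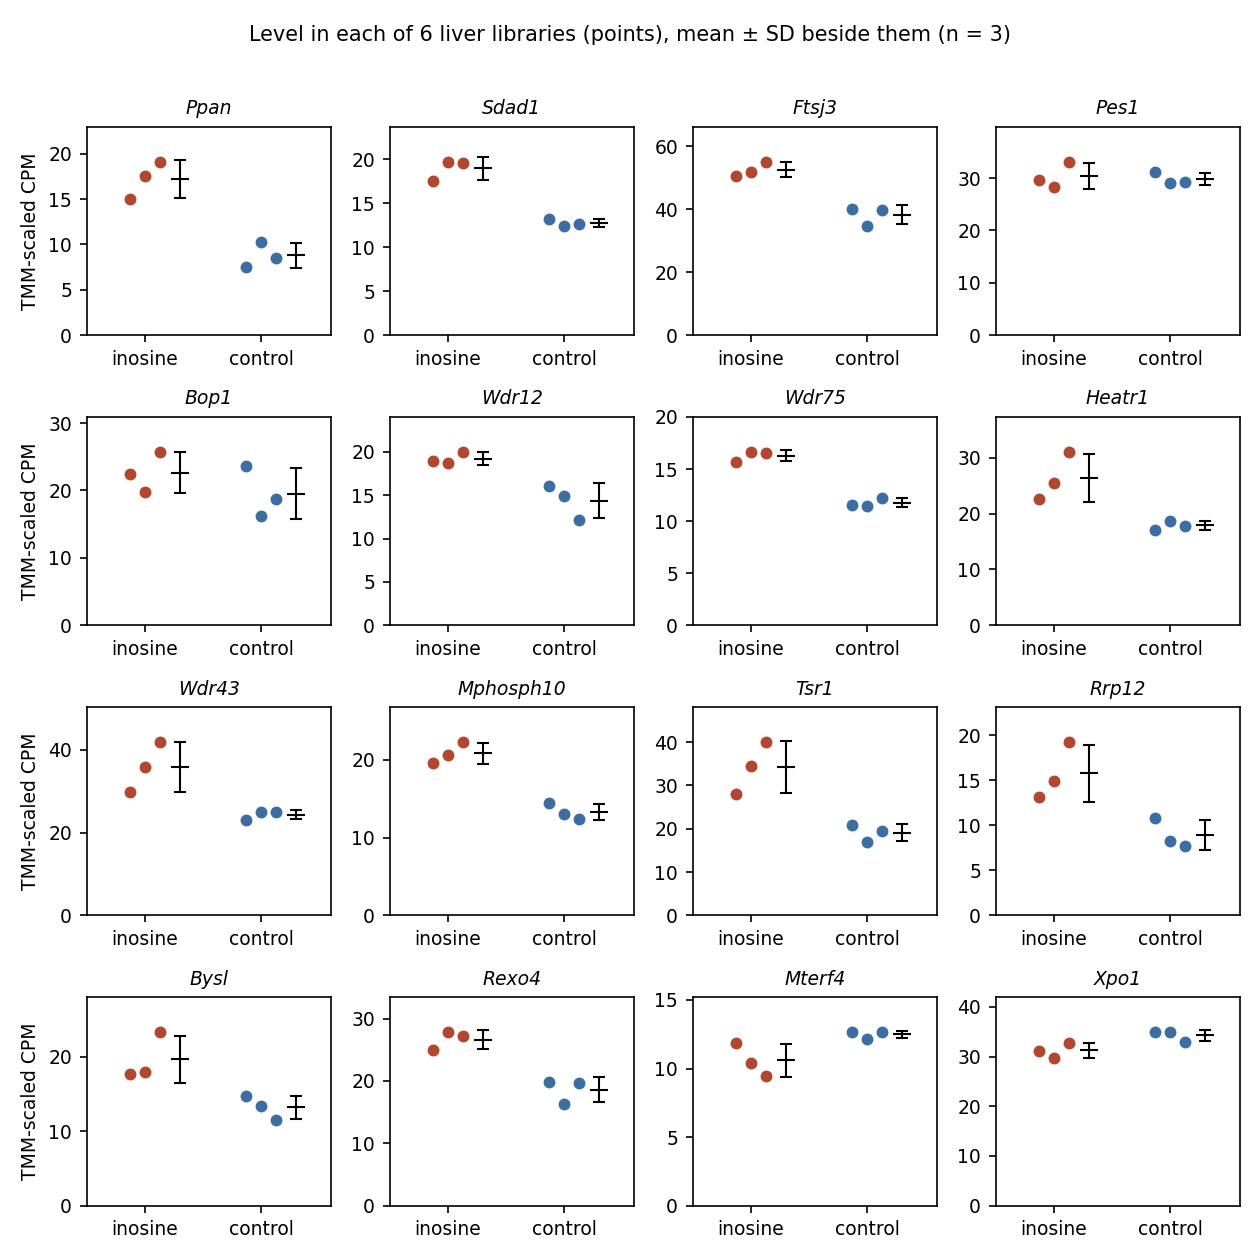
TMM-scaled CPM of 16 members in each of the 6 libraries, inosine at the left and control at the right of each panel, with the mean ± SD (n = 3) beside the points and each vertical axis starting at 0. Ppan, Sdad1, Tsr1 and Mphosph10 show groups that are well apart, Pes1 and Bop1 show groups that overlap, and Mterf4 and Xpo1 lie lower in inosine livers.

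Factors that act on the small subunit after the processome has come apart ranged from separate groups to hardly any difference. All 11 had a log2 fold change above 0 but the median was 0.07, and 4 had an unadjusted p under 0.05, namely the 3 described next and, chosen after its values were seen, the kinase gene Riok1. Tsr1, a GTPase-like protein of late small subunit precursors, had 28.1, 34.5 and 40.0 CPM in inosine livers and 20.8, 16.9 and 19.4 CPM in control livers. Rrp12, an export factor, had 13.2, 14.9 and 19.3 CPM in inosine livers and 10.8, 8.28 and 7.76 CPM in control livers. Bysl, a relative of yeast Enp1, had 17.7, 18.0 and 23.3 CPM in inosine livers and 14.7, 13.3 and 11.6 CPM in control livers.

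In these 3 genes every inosine library lay above every control. The log2 fold change was 0.84 (SE 0.14, adjusted p = 0.0834 in edgeR) for Tsr1, 0.82 (SE 0.18, adjusted p = 0.144 in edgeR) for Rrp12 and 0.57 (SE 0.15, adjusted p = 0.170 in edgeR) for Bysl. Tsr1 (gene ID 104662) spans chr11:74788906-74800166 on the plus strand of GRCm39 and overlaps Srr in the table, so some of its reads could be shared. The kinase Riok3, likewise chosen afterwards, illustrates the rest of the role with 89.8 ± 4.7 CPM in inosine livers and 86.7 ± 6.2 CPM in control livers (SD, n = 3).

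Of 4 members that act in export and in the cytoplasm, 3 were above 0. Sbds, the protein mutated in Shwachman-Diamond syndrome and a partner of Efl1 in the last release step, had 56.0, 54.2 and 50.1 CPM in inosine livers and 45.9, 47.1 and 47.3 CPM in control livers. Rsl24d1, a placeholder for a ribosomal protein on the large subunit, had 25.1, 26.7 and 26.9 CPM in inosine livers and 23.2, 23.1 and 23.1 CPM in control livers. Both had separate groups and small differences, with log2 fold changes of 0.19 and 0.18 and edgeR adjusted p of 0.299 and 0.319. Xpo1, the exportin that carries both precursors through the nuclear pore along with many other cargoes, had 31.2, 29.7 and 32.7 CPM in inosine livers against 34.9, 34.9 and 32.9 CPM in control livers. Its groups were just apart, with a log2 fold change of -0.13 (SE 0.07, with an adjusted p of 0.443 in edgeR).

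The RNA exosome and related nucleases were mixed, with 12 of 17 members above 0, a median of 0.14 and 5 at an unadjusted p under 0.05. Those 5 became 2 without control replicate 2, control replicate 3 or inosine replicate 1, and 3 without inosine replicate 3. Rexo4, an exonuclease related to yeast Rex4, had 24.9, 27.8 and 27.1 CPM in inosine livers and 19.8, 16.3 and 19.7 CPM in control livers. Isg20l2, an exonuclease that trims the end of a large subunit rRNA, had 23.6, 23.5 and 23.9 CPM in inosine livers and 20.4, 19.2 and 20.9 CPM in control livers. Exosc2, a cap subunit of the exosome, had 14.0, 12.2 and 14.5 CPM in inosine livers and 11.6, 10.5 and 8.81 CPM in control livers. The groups did not overlap in these 3 genes, at log2 fold changes of 0.52, 0.23 and 0.40, and the other 2 of the 5 were the catalytic subunit Dis3 (0.39) and Exosc6 (0.53). Exosc5, Exosc7, Exosc8 and Exosc9, subunits of the same ring, lay on the other side, with log2 fold changes of -0.09, -0.06, -0.16 and -0.12 and overlapping groups. Apart from Rexo4, Isg20l2 and Exosc2, these subunits were chosen after their values were seen.

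RNase MRP and RNase P, a related pair of RNA-protein nucleases, had 6 of 7 members tested, of which 3 were above 0, with a median of 0.04. The median was -0.08 when a mean of at least 5 CPM was required, which left 3 members, 1 of them above 0. Rpp25 was not tested, with a mean of 0.02 CPM in each group. Rpp38 stood out, at 6.42, 4.07 and 6.92 CPM in inosine livers against 2.72, 4.92 and 2.33 CPM in control livers, and its log2 fold change of 0.80 had a large error (SE 0.32, adjusted p = 0.311 in edgeR) and overlapping groups. Rpp40 had 5.69 ± 0.38 CPM in inosine livers and 5.14 ± 0.85 CPM in control livers, and Pop5 had 19.4 ± 2.4 CPM in inosine livers and 20.4 ± 1.9 CPM in control livers (SD, n = 3).

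The 6 members that modify rRNA bases and riboses were all above 0, with a median of 0.21, and 2 had an unadjusted p under 0.05, against 0 without control replicate 1 or inosine replicate 3 and 1 without control replicate 3 or inosine replicate 1. Rrp8, which methylates an adenine of the large subunit rRNA, had 11.6, 13.2 and 17.3 CPM in inosine livers and 10.3, 10.4 and 10.8 CPM in control livers. Nsun4, which methylates mitochondrial rRNA, had 23.6, 22.9 and 27.9 CPM in inosine livers and 17.7, 21.7 and 21.4 CPM in control livers. Nsun5, a methyltransferase for the cytoplasmic large subunit rRNA, had 10.1, 9.45 and 10.3 CPM in inosine livers and 8.11, 9.85 and 7.88 CPM in control livers. The groups were apart for Rrp8 and Nsun4 and overlapped for Nsun5, with log2 fold changes of 0.41, 0.29 and 0.21. The adjusted p in edgeR was 0.296, 0.315 and 0.475 in the same order.

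Members listed under mitochondrial ribosome assembly lay close to the middle of all genes, with 6 of 11 above 0 and a median of 0.03 (-0.01 without control replicate 1). Of these 11, 0 had an unadjusted p under 0.05 in edgeR or passed the threshold in DESeq2. Members that modify mitochondrial rRNA were listed with the rRNA modification members and are not among these 11. Nsun4, one of them, had an unadjusted p of 0.0385 in edgeR. Mrm1, Mrm2 and Mrm3, chosen after their values were seen, also act on mitochondrial rRNA. Their log2 fold changes deposited by the authors were 0.21, 0.20 and 0.07. Mterf4, which works with Nsun4 on the large mitochondrial subunit, had 11.9, 10.4 and 9.48 CPM in inosine livers and 12.6, 12.2 and 12.7 CPM in control livers, with inosine below control in every library and a log2 fold change of -0.24 (SE 0.12, with an adjusted p of 0.387 in edgeR). Ybey, a mitochondrial endonuclease, had 4.11, 4.41 and 4.68 CPM in inosine livers and 3.63, 3.72 and 3.85 CPM in control livers, the opposite order. Eral1, a chaperone for the small mitochondrial rRNA, had 16.6 ± 1.3 CPM in inosine livers and 17.8 ± 1.4 CPM in control livers (SD, n = 3), which overlapped.

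The 23 members outside any of these roles held 13 above 0, with a median of 0.03. Ipo4, an importin, had 28.3, 30.0 and 29.9 CPM in inosine livers and 27.1, 26.7 and 24.0 CPM in control livers, and Wdr55, a nucleolar repeat protein, had 14.5 ± 1.4 CPM in inosine livers and 12.0 ± 1.0 CPM in control livers (SD, n = 3). Both had separate groups, at log2 fold changes of 0.18 and 0.27. Pih1d2 had the lowest log2 fold change of all, -0.93, but with an SE of 0.50, overlapping groups and levels under 1.1 CPM in every library. Znhit6, a single member for the assembly of small nucleolar RNPs, had a log2 fold change of -0.01.

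Per length, in TPM (transcript counts divided by length and scaled to a common sum), the members were moderately expressed. Their median over the 6 libraries was 10.5 TPM, against 7.76 TPM for all genes tested, with 33 members above 20 TPM and 4 below 1 TPM, among them Pih1d2, Utp14b and Rpp25. The 5 highest members were not among those with large differences. Glul, the glutamine synthetase of pericentral hepatocytes that carries the ribosome biogenesis annotation, averaged 386 TPM. It was followed by Rbis at 165 TPM, the prolyl isomerase Pin4 at 102 TPM, Rcl1 at 77.7 TPM and Emg1 at 64.9 TPM, and their log2 fold changes were 0.24, -0.07, 0.06, -0.19 and 0.11 from Glul to Emg1. In all 5 the groups overlapped. The sign turned without inosine replicate 2 for Rbis and without inosine replicate 3 for Pin4.

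**Figure D3:**
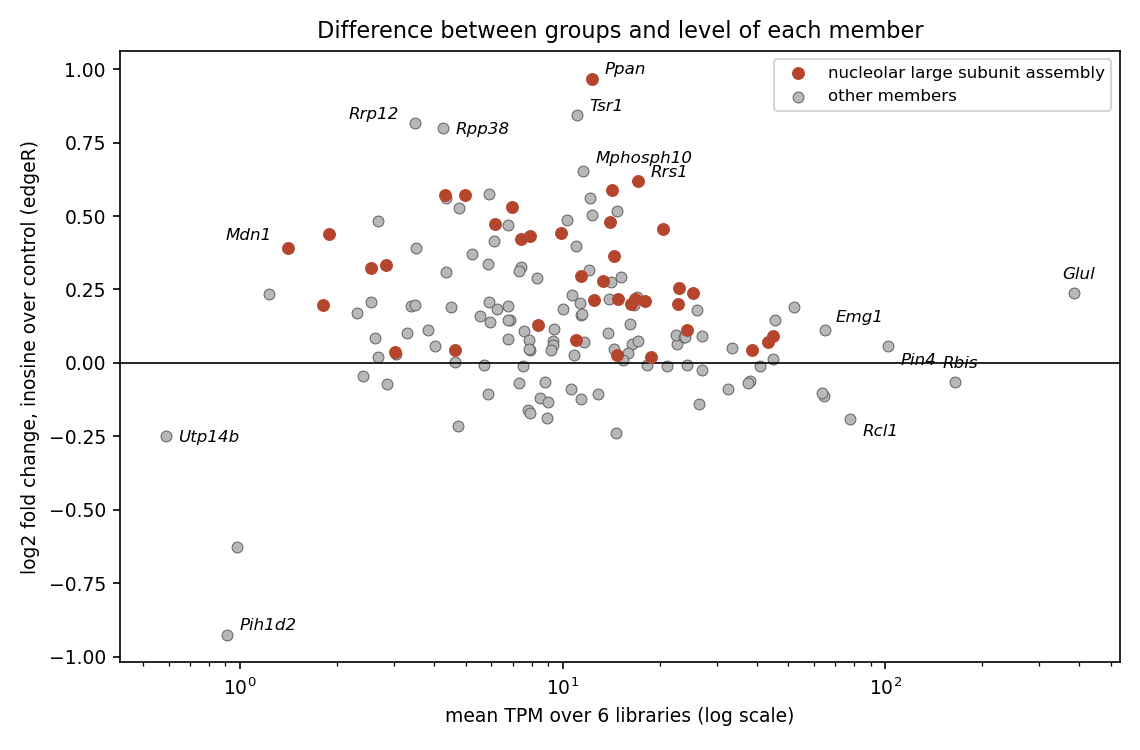
Mean TPM over the 6 libraries on a log axis (horizontal) against the log2 fold change of inosine over control (vertical) for the 155 tested members, with nucleolar large subunit factors in red. The members furthest above 0 lie between about 3 and 20 TPM, and the 5 members with the highest TPM lie within 0.24 of 0.

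The libraries did not contribute equally. Inosine replicate 3 held the highest level of 73 members, replicate 2 of 25 and replicate 1 of 20, while control replicates 1, 2 and 3 held the highest level of 14, 14 and 9. Relative to the control mean, the median member stood at 0.11, 0.12 and 0.18 on the log2 scale in inosine replicates 1, 2 and 3, against 0.01, -0.01 and -0.01 in the controls. For nucleolar large subunit factors the same medians were 0.18, 0.26 and 0.40 in inosine livers, against 0.05, -0.01 and -0.02 in control livers. The 3 inosine libraries were above the 3 controls in each of these medians, and the median over all genes stayed within 0.01 of 0 in each library. Leaving out inosine replicate 3 reduced the members higher at an unadjusted p under 0.05 to 25, and leaving out control replicate 3 reduced them to 28. Over all genes tested 637 and 598 were higher in these runs, against 889 with every library.

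Summed over all members, the level was 4161, 4225 and 4380 CPM in inosine livers and 3983, 3714 and 3724 CPM in control livers. Glul made up a large share of that sum. Without it the sum was 3352, 3394 and 3578 CPM in inosine livers, against 3126, 3121 and 3103 CPM in control livers, and the groups were again apart.

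Assembly factors that did not carry either annotation name were listed by role for comparison. Of 93 such genes, 70 were above 0 and the median log2 fold change was 0.12. In edgeR 20 of them (21.5%, against 7.21% of all genes) were higher and 1 (1.08%, against 7.26% of all genes), Zcchc4, was lower at an unadjusted p under 0.05. DESeq2 called 4 of them higher (4.3%, against 0.948% of all genes), namely Gnl3, Nob1, Gtpbp4 and Mak16, and 0 lower. Each gene was counted in 1 role only, the first that listed it, and the roles differed in their counts. The list for nucleolar large subunit assembly had 22 of 26 above 0, with a median of 0.19. It held Mettl5, a methyltransferase for the small subunit rRNA, at a log2 fold change of 0.06. There 12 were higher and 1, Zcchc4, was lower at that unadjusted p. Among genes listed under the exosome and RNA decay 2 of 7 were above 0, with a median of -0.06. Among those listed under rRNA modification it was 9 of 14, with a median of 0.03. Both lists had 0 at an unadjusted p under 0.05 in edgeR and 0 called by DESeq2. Without control replicate 1 these medians were 0.03 and -0.01. Zcchc4, Gtpbp4, Mak16 and Mettl5 were chosen after their values were seen. Nob1, the endonuclease that makes the final cut of the small subunit rRNA, had 11.4, 12.4 and 14.5 CPM in inosine livers and 9.08, 8.10 and 7.47 CPM in control livers, a log2 fold change of 0.64 (SE 0.13, with an adjusted p of 0.126 in edgeR). Gnl3, known as nucleostemin, had 29.1, 34.4 and 44.0 CPM in inosine livers and 18.4, 25.0 and 22.2 CPM in control livers (log2 fold change 0.71, SE 0.17, adjusted p = 0.157 in edgeR). Nmd3, the export adaptor of the large subunit, had 30.9, 35.2 and 36.7 CPM in inosine livers and 28.2, 28.4 and 27.4 CPM in control livers (log2 fold change 0.29, SE 0.09, adjusted p = 0.222 in edgeR). Npm1, nucleophosmin, was much more abundant and differed little, at 162 ± 6 CPM in inosine livers and 147 ± 12 CPM in control livers (SD, n = 3).

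**Figure D4:**
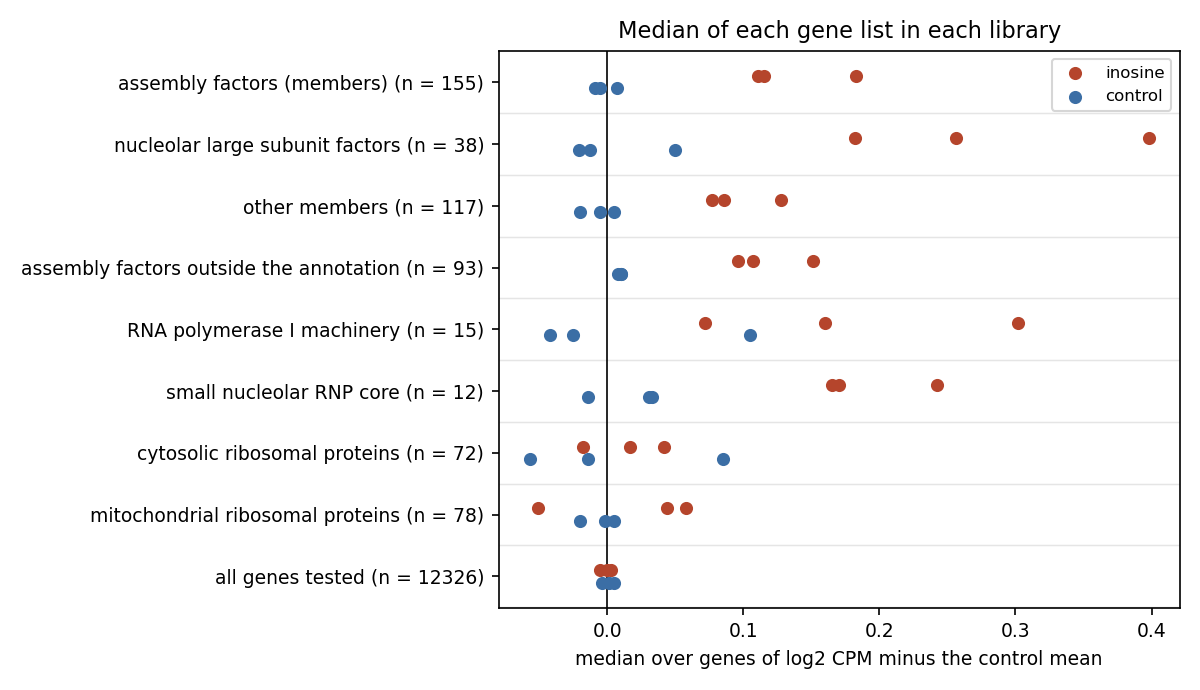
Median over the genes of each list of log2 CPM minus the control mean, 1 point per library, inosine in red above control in blue. Assembly factors and small nucleolar RNP core proteins have every inosine library to the right of every control, while cytosolic and mitochondrial ribosomal proteins have both groups mixed around 0.

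The steps before and beside assembly were read in the same way. In the RNA polymerase I machinery 13 of 15 genes were above 0, with a median of 0.18 and 6 higher and 1 lower, Taf1b, at an unadjusted p under 0.05. Those 6 became 2 without control replicate 3 and 3 without control replicate 1, inosine replicate 1 or inosine replicate 3. Among the small nucleolar RNP core proteins 11 of 12 were above 0, with a median of 0.17 and 5 higher at that threshold, namely Nolc1, Nop56, Nop58, Fbl and Gar1, and Nolc1, a chaperone of these particles, had 39.0, 49.8 and 54.8 CPM in inosine livers and 25.3, 26.0 and 28.4 CPM in control livers (log2 fold change 0.85, SE 0.13, adjusted p = 0.0834 in edgeR). The ribosomal proteins themselves lay near 0, where 42 of 72 cytosolic ones were above 0 with a median of 0.01, and 47 of 78 mitochondrial ones with a median of 0.02. With upper-quartile scaling both medians were -0.02 and 20 of the 72 cytosolic ones were above 0, and the 42 became 26 without control replicate 1 and 68 without control replicate 2. At an unadjusted p under 0.05 in edgeR there were 0 cytosolic ribosomal proteins in either direction and 1 mitochondrial one, Mrps26, which was higher, and DESeq2 called 0 of either kind. All genes of these lists named here, Nolc1 aside, were chosen after their values were seen.

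Myc, a transcription factor known to drive many assembly factor genes, was low and lower in inosine livers. It had 2.98, 3.32 and 3.93 CPM in inosine livers and 4.72, 6.06 and 5.02 CPM in control livers, with separate groups and a log2 fold change of -0.63 (SE 0.18, with an adjusted p of 0.209 in edgeR). The 12 tested genes of the Myc network had a median of -0.05, with 6 above 0, and Myc was lower and Max, its partner, and Mlxip, chosen after their values were seen, higher at an unadjusted p under 0.05.

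Promoters give a feature of the members that does not depend on the comparison. RefSeq promoters on GRCm38.p6, each from 250 bases before to 50 bases after a start site, were matched by symbol for 126 of the 156 members, in 144 promoters. Letters were searched on both strands. The ETS-type letters CCGGAAG were found in 33.3% of the members' promoters, against 16.8% of the promoters of all genes tested and 8.86% of all 32851 promoters. The YY1-type letters ATGGCG were found in 27.1%, against 14.6% and 8.93%, and the E-box CACGTG, which Myc and other factors bind, in 18.8%, against 9.68% and 7.15%. CTCGCGAG was found in 4.17%, against 1.74% and 0.919%, and the NRF1-type letters GCGCATGC in 5.56%, against 4.95% and 2.71%. CCAAT was held by 33.3%, against 37.9% and 37.4%, and TATAAA by 6.25%, against 7.66% and 13.6%. CpG pairs were dense, with a median of 21 in 300 bases for the members, 20 for all genes tested and 7 for all promoters. Among the 37 promoters of nucleolar large subunit factors, 15 (40.5%) held the ETS-type letters and 7 (18.9%) the E-box. CACGTG and CTCGCGAG read the same on both strands, and none of these letters shows that a factor binds there.

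The 100 bases just before the start site are shown for 5 members with groups that were apart, picked because they hold these letters there, to show them in place. Not every such member does: Nip7, chosen after its values were seen, held none of the letters marked here in its 100 bases. ETS-type letters began 103 bases before its start site and 8 bases after it. Ddx21, Nop14 and Wdr12 held none of the letters in their whole promoters of 300 bases. Capitals mark matches to the letters above or to their reverse complement.
Nop2, chr6:125131783-125131882, plus strand: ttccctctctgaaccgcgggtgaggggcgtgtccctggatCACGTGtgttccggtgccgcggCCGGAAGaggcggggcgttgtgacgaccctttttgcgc
Rpf2, chr10:40247040-40247139, minus strand: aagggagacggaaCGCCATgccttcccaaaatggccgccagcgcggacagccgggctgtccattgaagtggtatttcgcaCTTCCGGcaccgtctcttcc
Heatr1, chr13:12395275-12395374, plus strand: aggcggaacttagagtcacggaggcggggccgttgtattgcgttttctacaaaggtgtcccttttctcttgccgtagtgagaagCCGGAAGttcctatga
Mphosph10, chr7:64392237-64392336, minus strand: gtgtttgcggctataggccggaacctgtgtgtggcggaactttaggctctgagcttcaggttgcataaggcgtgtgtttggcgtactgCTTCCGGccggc
Tsr1, chr11:74897980-74898079, plus strand: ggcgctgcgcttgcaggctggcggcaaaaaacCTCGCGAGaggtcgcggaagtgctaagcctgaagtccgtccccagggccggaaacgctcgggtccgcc
Nop2 holds an E-box 60 bases and ETS-type letters 38 bases before its start site. ETS-type letters lie 20 bases before that of Rpf2, 16 before that of Heatr1 and 12 before that of Mphosph10, and Tsr1 holds CTCGCGAG 68 bases before its start. Ppan, the member with the largest fold change, held TATAAA but neither an E-box nor ETS-type letters in the 100 bases before its start site, and it held ETS-type letters 18 bases after the start.

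Other gene groups also differed between these libraries. All 13 genes of the unfolded protein response list were above 0, with a median log2 fold change of 0.91, 11 higher at an unadjusted p under 0.05 and a summed level of 3082 to 4245 CPM in inosine livers and 2108 to 2350 CPM in control livers. That sum was highest in inosine replicate 3. Most markers of other cell types had values below 0, and fewer passed an unadjusted p under 0.05 in edgeR. The 5 tested of 7 erythroid markers were all below 0 and all 5 passed (median -0.89; 306 to 506 CPM in inosine livers and 646 to 852 CPM in control livers). Stellate cell markers were below 0 in 12 of 12, with 3 past that p (median -0.40; 305 to 477 CPM in inosine livers and 434 to 485 CPM in control livers), sinusoidal endothelial markers in 10 of 12, with 4 past it (median -0.34; 221 to 325 CPM in inosine livers and 316 to 361 CPM in control livers) and Kupffer cell markers in 11 of 12, with 2 past it (median -0.22; 357 to 410 CPM in inosine livers and 363 to 511 CPM in control livers), with none at 0. Proliferation markers were below 0 in 9 of 10 tested, with 3 past it (median -0.62), at 17.6 to 21.6 CPM in inosine livers and 16.0 to 42.9 CPM in control livers. The summed levels of stellate, Kupffer and proliferation markers and 1 inosine library's sum of endothelial markers overlapped the controls. The Kupffer and stellate counts rested on single libraries. At that p 10 Kupffer markers were lower without control replicate 1 and 0 without control replicate 2, and 9 stellate markers without inosine replicate 2 and 1 without inosine replicate 3. Over the omissions of a library, the erythroid count stayed at 4 to 5. The endothelial count ran from 3 to 8 and the proliferation count from 1 to 5. Hepatocyte markers were above 0 in 7 of 10 (median 0.14), with 1 higher at an unadjusted p under 0.05 in edgeR. Without inosine replicate 2, 5 of the 10 were above 0 (median 0.01). Without control replicate 1, 8 were above 0 and 3 were higher at that p (median 0.17). Fewer cells of a type and less RNA per cell cannot be told apart in bulk tissue, and the part of these groups in the members' values was not tested.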

How the data were processed

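Per the labels' protocols, Trizol was used to extract total RNA of the 3 inosine and 3 control livers. The authors deposited estimated counts per gene of the kind RSEM writes, and 89.8% to 90.3% of the counts in a library were exactly whole. The authors also deposited TPM values for each gene and library, scaled by length. The submitters' processing notes name Bowtie2, RSEM and the build GRCm39 with no version, and the sources used here do not say whether strand was kept. The authors' deposited log2 fold changes, p-values and q-values came from DESeq2, per the file headers, and are printed under their name alone. The table ended in 1 empty line, which was left out, and 0 columns of per-sample values were left unmapped.

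Counts were rounded and tested with the quasi-likelihood test of edgeR 4.0.16 in R 4.3.3, with TMM scaling, the default filter built on a count of 10, all 6 libraries and the group as the only term. Tests were two-sided with Benjamini-Hochberg adjustment over all 12326 genes tested and a threshold of 0.05. The SE is the log2 fold change over the root of its F statistic. DESeq2 1.42.0 and voom of limma 3.58.1 were alternatives, with other scalings and filters, a replicate block and the omission of each library. The edgeR step was checked on simulated data. Library medians used log2 of CPM plus 0.5. Where a gene had 0 counts, up to 3 counts (0.171 to 0.183 CPM by library) remain possible from counting error alone, and PCR copies were not removed here. Libraries of a group differed beyond sampling noise, with a chi-square of 28.9 to 122 per gene. Of the members, 51 overlap another gene of the table on either strand, and reads there could be shared.

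The members and lists were chosen with earlier results of these data known. The rule for named genes takes the 3 members of smallest edgeR p in each role, the 5 of highest TPM, the 5 of lowest fold change and genes named in advance by their role, and any other gene is named as chosen after its values were seen. A member that the rule takes and a marker gene are not reported here by name. Promoter sequences are those of RefSeq on GRCm38.p6, while gene positions are those of the deposited table.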

Additional observations from a re-analysis of the deposited data

How the results depend on the processing

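The median log2 fold change of the members stayed between 0.11 and 0.16 over the omissions of a library, and it was above 0 in every alternative run. The counts of calls depended on the tool and on single libraries. Over all genes, edgeR's 1 call became 223 with DESeq2, 6 with limma-voom, 7 with upper-quartile scaling, 9 without a filter on low counts and 8 with a mean of at least 5 CPM. Leaving out a library gave 0 to 56 calls in edgeR, the 56 without control replicate 1. In DESeq2 it gave 499, 111 and 132 calls without control replicate 1, 2 and 3, and 226, 132 and 157 without inosine replicate 1, 2 and 3. Members called were 0 in edgeR and 11 in DESeq2. An omission gave 0 to 1 in edgeR (Mphosph10, without control replicate 1). In DESeq2 it gave 14, 5 and 5 without control replicate 1, 2 and 3, and 14, 3 and 3 without inosine replicate 1, 2 and 3. The 48 members higher at an unadjusted p under 0.05 became 29 among the 82 annotated to ribosome biogenesis and 37 among the 115 annotated to rRNA processing. These are smaller sets than the 156 members. The 48 became 25 to 42 when a library was omitted. In those runs 598 to 1217 of all genes were higher, against 889 with every library. The 1 lower member became 2 with upper-quartile scaling, 0 with a mean of at least 5 CPM, 0 with ribosome biogenesis alone, and 1 to 3 over the omissions. The 5 members whose inosine libraries all lay below the controls became 1 on deposited TPM. They became 6 to 12 over the omissions, where fewer libraries are compared. Omissions for the counts of separate groups and in DESeq2 were chosen after seeing the data. The cause of these changes was not tested.

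With the replicate number as a block, edgeR called 0 genes and 0 members, with 35 members higher and 2 lower at an unadjusted p under 0.05. Over all genes tested 704 were higher and 793 lower at that p. Deviations of same-numbered libraries from their group means correlated at -0.04, -0.03 and -0.02, and inosine libraries did not all correlate best with their own number. Deviations from the mean of 3 libraries constrain each other, so these values cannot decide whether same-numbered libraries were paired. The sources used here do not say.

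Among the 50 genes the naming rule takes, 621 of 644 pairs of gene and setting kept their direction and their side of the threshold, 13 passed it newly, 5 no longer passed it and 5 turned direction. The 5 that no longer passed were Crebrf, at an edgeR adjusted p of 0.0988 with the replicate block, 0.0537 without control replicate 3, and 0.0676, 0.104 and 0.0503 without inosine replicate 1, 2 and 3. Those that turned were Pes1 (-0.004 with upper-quartile scaling, and -0.039 to 0.079 over the omissions), Pin4 (-0.043 to 0.122), Utp20 (-0.028 to 0.177) and Rbis (-0.156 to 0.002), and none of these was past the threshold. Depth limits the lowest members most, such as Pih1d2 and Rpp25.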
